A study of Mus musculus with 41 samples.

Results

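The integrin, focal adhesion and cell junction genes examined here are 39 genes picked by name for their ties to Src signalling, of the 24028 gene symbols listed for each library. All 39 were found, each on 1 row, and they were grouped by role into 9 integrin subunits, 12 focal adhesion plaque genes, 7 actin linkers, 3 ERM genes and 8 cell-cell junction genes. RNA-seq was available from 13 cultures of androgenetic haploid embryonic stem cells (AG-haESCs), mouse stem cells that carry a sperm genome only, all labelled as haploid and of C57BL/6 background. The wild-type line 2i-14, kept in 2i/L (serum medium with LIF, 1 µM of the MEK inhibitor PD0325901 and 3 µM of the GSK3 inhibitor CHIR99021), was sampled 3 times (passages p18, p39, p50). Wild-type TSa2i-14 (p22, p47, p54) and TSa2i-C57 (p9, p58), grown in the serum-free medium of the TSa2i/L protocol (LIF, 1.5 µM of the Src inhibitor CGP77675 and 3 µM CHIR99021), gave 5 libraries. The study lists TSa2i-14 as carrying actin-EGFP and lists no modification for TSa2i-C57. 2i-O48 lacks H19-DMR and IG-DMR, 2i-O48-TKO lacks the gene H19 in addition, and 1 culture of each was sequenced in 2i/L. Each of the 3 lines in 2i/L gave 1 further library 5 passages after the switch from 2i/L to SF/a2i/L, the same serum-free medium with CGP77675 and CHIR99021. Each line was 1 cell line and its passages were not independent derivations, so p-values measure the spread between these cultures only. By its name and deletions 2i-O48-TKO appears to come from 2i-O48, so these lines may not be independent derivations either. The switch replaced the MEK inhibitor with the Src inhibitor, removed the serum, and changed the base medium and its supplements. These came together, and their effects cannot be told apart.

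Values are FPKM, in which the fragments of a gene are scaled by its transcript length and by all mapped fragments of the library, with no counts. The depth implied by the FPKM of lone fragments was 12800000 to 20100000 fragments per library, and 3 fragments on a transcript of 1 kb correspond to 0.150 to 0.235 FPKM, which covers counting error only. MicroRNA loci held 67.2% of the summed FPKM in switched 2i-14 cells and 23.2% in 2i-14 p18. Without these loci the sums were 705261 and 669934 FPKM, within the 651108 to 735365 FPKM of the other libraries. Pluripotency genes marked every library, with Pou5f1 at 59.6 to 168 FPKM and a mean log2(FPKM + 1) over 12 such genes of 6.68 to 7.10, and the mean over 7 primitive endoderm genes was 0.0525 to 0.404. Gata6 stayed under 0.1 FPKM, and the highest value of that list was 2.81 FPKM, for Dab2 in TSa2i-14 p54, one of the libraries with fibroblast RNA described next. The lines were derived on feeder fibroblasts, and the study states that its haploid cells were kept on feeder cells throughout. Genes of fibroblasts stood out in 3 libraries, called here the libraries with fibroblast RNA. The study describes flow sorting of the lines for haploid cells, and whether the cells were sorted directly before the RNA was taken is not stated. Averaged over 16 fibroblast genes, log2(FPKM + 1) reached 1.73 for 2i-14 p39, 2.30 for TSa2i-14 p54 and 1.31 for TSa2i-C57 p58, against 0.163 to 0.574 in the other 10 libraries. The Y-linked gene Eif2s3y was at 3.12, 2.07 and 1.22 FPKM in those 3 libraries, at 0.166 and 0.124 FPKM in TSa2i-14 p22 and switched 2i-14 cells, and at 0 in the other 8. The 3 switched libraries and their 3 controls in 2i/L had a fibroblast mean of 0.163 to 0.287, and the switch pairs are therefore described first.

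Integrins are pairs of an alpha and a beta subunit that bind the matrix outside the cell. Inside the cell their tails recruit talin (Tln1), vinculin (Vcl), paxillin (Pxn) and the kinase FAK (Ptk2) into focal adhesions, where Src and FAK act together and phosphorylate the scaffold Bcar1. Filamin, alpha-actinins, cortactin, Vasp and Enah tie these sites to actin, and the ERM proteins ezrin, radixin and moesin tie the cell membrane to it. Embryonic stem cells grow as compact colonies held together by E-cadherin (Cdh1), whose tail binds the catenins, and Epcam is a surface marker of such colonies.

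The promoters of 4 members are shown because 2 of them, Bcar1 and Vasp, passed the tests described below, and Ezr and Itgb5 had the next smallest adjusted p-values after the switch. RefSeq promoter sequences were given for 30 of the 39 members, and each sequence below is the 250 bases before an annotated start, read 5′ to 3′ on the strand of the gene. Each matched the NCBIM37 (mm9) genome exactly and once, with capitals marking the GC box (GGGCGG or its reverse complement).
Bcar1, downstream start, chr8:114256037-114256286, minus strand: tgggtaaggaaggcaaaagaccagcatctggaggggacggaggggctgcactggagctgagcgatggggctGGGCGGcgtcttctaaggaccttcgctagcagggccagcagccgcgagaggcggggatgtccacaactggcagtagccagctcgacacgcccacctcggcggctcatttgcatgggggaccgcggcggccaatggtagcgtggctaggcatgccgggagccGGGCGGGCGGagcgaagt
Bcar1, upstream start, chr8:114267750-114267999, minus strand: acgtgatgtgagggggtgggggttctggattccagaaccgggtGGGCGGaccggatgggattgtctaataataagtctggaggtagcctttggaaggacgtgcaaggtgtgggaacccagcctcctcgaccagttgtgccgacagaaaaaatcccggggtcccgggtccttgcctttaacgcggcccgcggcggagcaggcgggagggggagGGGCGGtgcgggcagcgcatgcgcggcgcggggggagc
Ezr, chr17:6987130-6987379, minus strand: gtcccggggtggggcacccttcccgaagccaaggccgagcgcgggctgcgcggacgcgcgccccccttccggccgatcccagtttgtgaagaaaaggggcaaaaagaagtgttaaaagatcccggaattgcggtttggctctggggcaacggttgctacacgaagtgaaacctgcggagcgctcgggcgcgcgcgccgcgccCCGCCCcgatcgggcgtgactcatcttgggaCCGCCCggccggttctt
Itgb5, chr16:33829501-33829750, plus strand: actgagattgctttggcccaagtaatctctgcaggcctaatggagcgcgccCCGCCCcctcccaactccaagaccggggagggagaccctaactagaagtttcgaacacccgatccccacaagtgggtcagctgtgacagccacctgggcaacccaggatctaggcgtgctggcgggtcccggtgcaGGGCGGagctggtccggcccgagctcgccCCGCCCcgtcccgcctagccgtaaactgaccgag
Vasp, chr7:19857204-19857453, minus strand: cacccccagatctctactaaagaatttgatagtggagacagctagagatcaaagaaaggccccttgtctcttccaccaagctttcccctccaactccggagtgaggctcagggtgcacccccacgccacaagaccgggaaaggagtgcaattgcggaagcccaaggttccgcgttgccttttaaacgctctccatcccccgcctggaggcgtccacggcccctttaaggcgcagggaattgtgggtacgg
The GC box was found in the promoters of Bcar1, Ezr and Itgb5 and not in that of Vasp. On both strands, with overlapping matches counted, it stood in 71.1% of the 38 promoters of members and in 32.7% of all 32851 promoters, and the median GC content of these promoters was 64.8% and 52.4%. The TEAD motif GGAATG stood in 10.5% of the members' promoters and 12.6% of all, the AP-1 motif TGANTCA in 7.89% and 6.75%, and the CArG box in 2.63% and 1.47%. Such matches are a description of the letters in these windows.

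Over the 13 libraries, 13 members had a median of at least 10 FPKM, 15 had a median between 1 and 10 FPKM and 11 had a median under 1 FPKM. FPKM is a level per length of transcript, and genes are set side by side here on that scale. The cDNA was amplified and the annotation behind the lengths is not given, so rankings between genes are approximate. The 2 highest members, Epcam and Ctnnb1, are cell-cell junction genes, and the next was the ERM gene Rdx. Epcam ranged from 90.7 to 202 FPKM with a median of 151, Ctnnb1, which encodes beta-catenin, from 56.2 to 109 with a median of 82.8, and Ctnna1, which encodes alpha-catenin, from 24.9 to 41.4 with a median of 35.8. Cdh1 had a median of 14.8 FPKM, whereas Cdh2, which encodes N-cadherin, had a median of 0.532 FPKM. Among the integrins, the shared beta subunit Itgb1 was highest, with a median of 21.6 FPKM, followed by Itga6, a laminin receptor subunit, at 7.68, Itgb5 at 5.34 and Itgav at 3.06 FPKM. The ranges of Itga6 and Itgb5 overlapped, as did those of Itgb5 and Itgav. Itga2, a collagen receptor subunit, was listed at 0 in all 13 libraries, and Itga3, Itga5, Itga9 and Itgb4 had medians of 0.976, 0.605, 0.251 and 0.222 FPKM. In the plaque, Ilk, encoding integrin-linked kinase, and its partner Lims1 had medians of 26.6 and 19.3 FPKM, and Parva, the other partner, had a median of 0.864 FPKM. Tln1, the major link between integrins and actin, had a median of 1.50 FPKM and Pxn of 0.288 FPKM. Of the ERM genes, Rdx was highest with a median of 51.1 FPKM, above Msn at 16.1 FPKM, and Ezr lay between 11.5 and 27.8 FPKM.

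**Figure D1:**
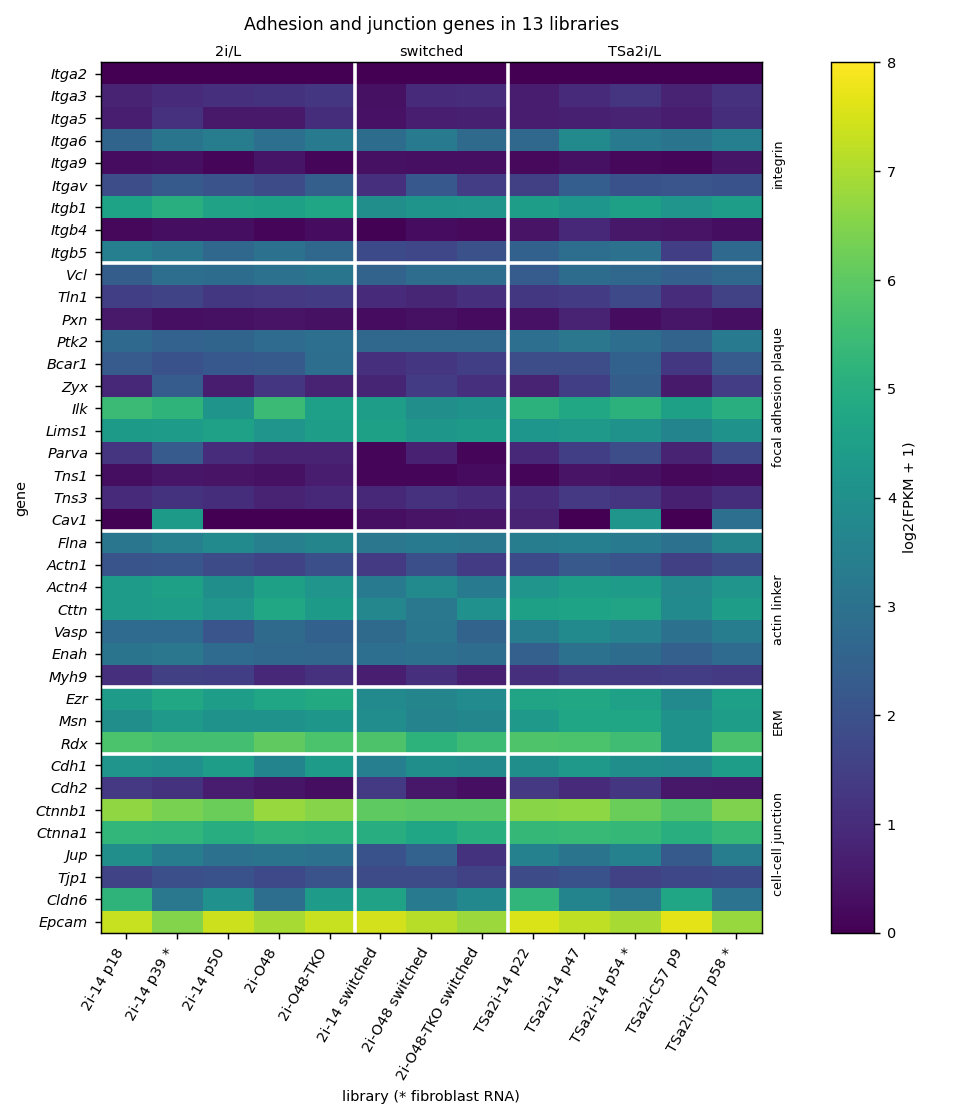
Level of each of the 39 members (rows, by role) in each of the 13 libraries (columns, by medium) as log2(FPKM + 1), where asterisks mark the 3 libraries with fibroblast RNA. Epcam and Ctnnb1 are high in every library, Itga2 is listed at 0 in all, and Cav1 is high only in the 3 marked libraries, at 6.57 to 19.7 FPKM.

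The first comparison asked what the switch from 2i/L to SF/a2i/L did to these genes, in 3 pairs of the same line before and after. With p50 standing for 2i-14 before the switch, 1 member changed past the test, Bcar1, which fell. The passage that was switched is not given, and this count depends on the control and on each line. It was 7 with p18 (Actn4, Bcar1, Ctnnb1, Ezr, Ilk, Itgb5 and Jup), 6 with p39 (these without Ctnnb1) and 5 with all 3 libraries of 2i-14 (Actn4, Bcar1, Ezr, Itgb5 and Jup), all lower. It was 3 without 2i-14 (Bcar1, Ezr and Jup), 6 without 2i-O48 and 0 without 2i-O48-TKO. Calls over all genes also changed between the alternative fits and were most numerous with p39, so these counts alone are no result about the members. The p39 library carried fibroblast RNA, and its part in these counts was not tested. The values that follow use p50. Of the 39 members, 29 reached 1 FPKM in at least 3 of the 6 libraries and were tested, and 1 of these 29 had an adjusted p under 0.05 (limma blocked on the line, Benjamini-Hochberg over all 9759 genes tested), where 6.89% of all genes tested were called and 4.66% were called lower. The share of members called was thus no larger than that of all genes. Most members lay lower after the switch without passing the test. The log2 change of FPKM + 1 was negative for 25 of 29 members, with a median of -0.38 against -0.09 for all genes tested, of which 58.8% were negative. Centring each library on its median raised every change by 0.17, and then 22 of 29 members were negative with a median of -0.21, against 0.07 for all genes. Of all called genes, 32.3% were higher as deposited, 55.1% after centring and 45.3% after quantile normalization. At an unadjusted p under 0.05, 8 members were lower and 0 were higher, where 16.3% of all genes were lower. The 3 switched libraries were all below the 3 in 2i/L for 12 members, where the share of all genes was 19.8%, and all above for 1 member, Enah, where it was 11.5%. Within the pairs, 14 members were lower in all 3 lines and 3 were higher in all 3, Zyx, Vasp and Enah, where the shares of all genes were 29.4% and 19.4%.

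Bcar1 (chromosome 8 of NCBIM37, 114234367 to 114267748, minus strand, protein coding) encodes the scaffold that Src phosphorylates at focal adhesions. It was 3.62 FPKM in 2i-14 p50 and 1.12 in switched 2i-14 cells, 3.83 in 2i-O48 and 1.40 after its switch, and 6.35 in 2i-O48-TKO and 1.82 after its switch. Every switched library was below every library in 2i/L. The log2 change of FPKM + 1 was -1.17 (SE 0.19, 95% interval -1.64 to -0.70, adjusted p = 0.0249 by limma), or 0.444 times the value in 2i/L on that scale. The fall was 1.12, 1.01 and 1.38 on the log2 scale in the 3 pairs, and after centring the change was -1.01. From 2i-14 p18 or p39, at 3.96 and 3.05 FPKM, the wild-type fall was 1.22 and 0.93. Without the pair of 2i-O48-TKO the change was -1.07 with an adjusted p of 0.137 by limma.

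The integrin subunits with the most signal were lower after the switch in value, and none passed the test with p50 as the control. Itgb5, a beta subunit that pairs with Itgav to bind vitronectin, had the largest change among integrins. It was 5.34, 7.11 and 5.33 FPKM in 2i-14 p50, 2i-O48 and 2i-O48-TKO, and 2.48, 2.23 and 2.98 FPKM after the switch. The 2 groups did not overlap. The log2 change was -0.95 (SE 0.22, 95% interval -1.48 to -0.43, adjusted p = 0.0543 by limma), with a fall in each of the 3 pairs. Itgb1 had a mean of 23.7 FPKM before and 16.2 after (log2 change -0.52, adjusted p = 0.152 by limma), also with no overlap. Itga3, Itga6 and Itgav had log2 changes of -0.39, -0.24 and -0.53, and the pair of 2i-O48 went the other way for Itga6 and Itgav. All 5 integrin subunits tested had a negative change as deposited, after centring and after quantile normalization. Changes of the remaining plaque genes tested were smaller than that of Bcar1. Vcl and Tln1 had log2 changes of -0.23 and -0.38 with a lower value in all 3 pairs, Ptk2 and Lims1 of -0.09 and -0.04, and Zyx of 0.23. Ptk2 and Lims1 were above 0 after centring, at 0.08 and 0.13. Ilk, at -0.53, fell by 1.48 in the pair of 2i-O48 and was 0.34 higher in that of 2i-14.

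Of the actin linkers and ERM genes, 8 of 10 had lower values after the switch, also after either scaling, and 0 of 10 passed the test with p50 as the control. Actn4, a non-muscle alpha-actinin, was 14.9, 22.2 and 17.0 FPKM in 2i-14 p50, 2i-O48 and 2i-O48-TKO, and 8.73, 13.3 and 8.57 FPKM after the switch. It was lower in each pair, and the groups did not overlap. Its log2 change was -0.78 (SE 0.20, adjusted p = 0.0680 by limma). Ezr, which encodes ezrin, was 20.9, 25.0 and 27.8 FPKM in the same 3 controls and 13.1, 11.5 and 13.6 FPKM after the switch. The switched values lay close together and below every control. Its log2 change was -0.89 (SE 0.20, 95% interval -1.38 to -0.40, adjusted p = 0.0524 by limma). Msn and Rdx, the other ERM genes, had log2 changes of -0.40 and -0.31, and Rdx was 0.17 higher in the pair of 2i-14. Cttn, encoding cortactin, a Src substrate in the cell cortex, had a log2 change of -0.77 with a fall of 1.55 in the pair of 2i-O48. Vasp and Enah, related proteins that extend actin filaments, had log2 changes of 0.36 and 0.21 and were higher in all 3 pairs. Vasp was 3.33, 5.81 and 4.57 FPKM in the controls and 5.82, 7.75 and 4.86 FPKM after the switch, and the groups overlapped. From 2i-14 p18 or p39 in place of p50, the wild-type change was negative for Vasp (-0.03 from either), Enah (-0.15 and -0.24) and Zyx (-0.08 and -1.49). The p39 library carried fibroblast RNA, and its part in these changes was not tested. Zyx was 4.00 FPKM in p39, against 0.888 in p18 and 0.515 in p50.

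The cell-cell junction genes differed among themselves. Jup, which encodes plakoglobin, a catenin of adherens junctions and desmosomes, had the largest change of the group. It was 7.08, 7.40 and 6.83 FPKM in 2i-14 p50, 2i-O48 and 2i-O48-TKO, and 3.07, 4.77 and 1.26 FPKM after the switch. The controls were nearly equal and the switched libraries were spread, with all 3 lower. The log2 change was -1.11 (SE 0.28, 95% interval -1.78 to -0.43, adjusted p = 0.0685 by limma). Ctnnb1 had a mean of 90.9 FPKM before and 61.7 after (log2 change -0.53, adjusted p = 0.157 by limma), with no overlap. Cdh1 had a log2 change of -0.40 and was 0.37 higher in the pair of 2i-O48. Epcam, Ctnna1, Tjp1 and Cldn6 had log2 changes of -0.10, -0.20, -0.20 and 0.11, and Epcam was at 0.07 after centring. Between 2i-O48 and 2i-O48-TKO, 17 of 29 members were lower in both pairs and 3 were higher in both, where the shares of all genes were 43.6% and 25.1%. After centring these were 12 and 4 members with 28.3% and 39.7% of all genes, and after quantile normalization 13 and 4 members with 32.7% and 34.2%, so that the direction of the shares of all genes depended on the scaling.

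**Figure D2:**
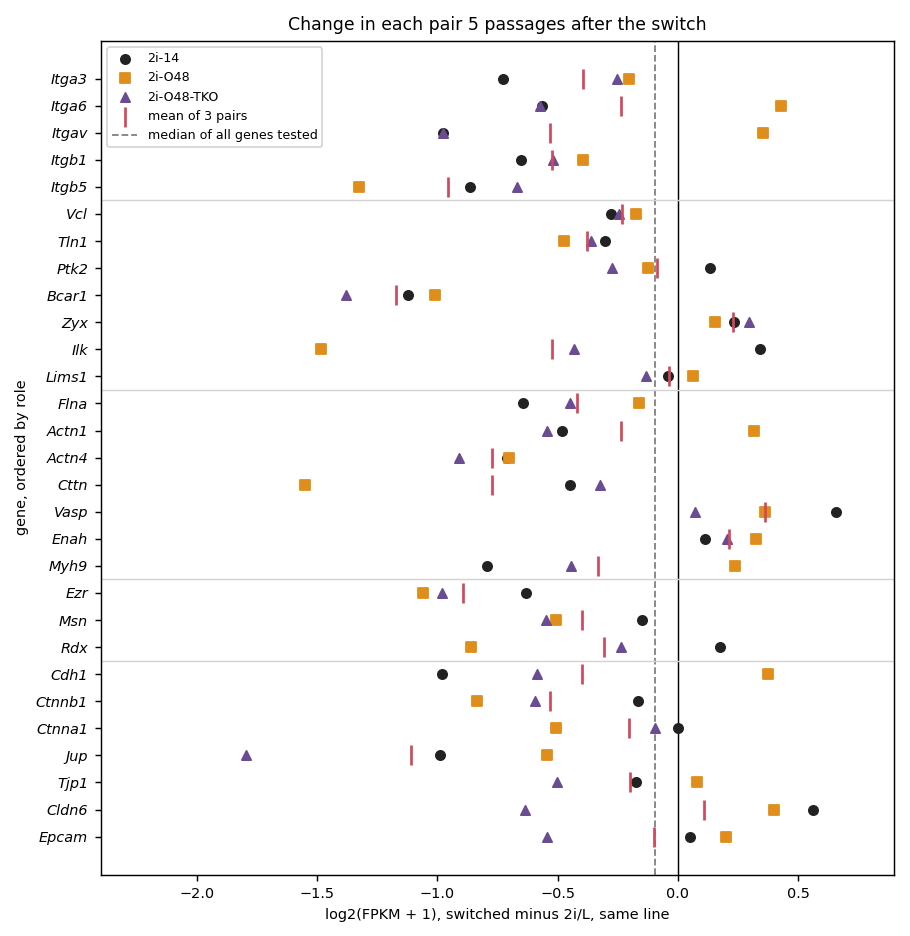
Change of log2(FPKM + 1) from 2i/L to 5 passages after the switch, in each of the 3 lines (points) and as their mean (bars), for the 29 members tested, in order of role. The dashed line is the median of all genes tested, at -0.09, and Bcar1, Itgb5, Actn4, Ezr and Jup lie to its left in all 3 lines.

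10 members were too low to be tested in the switch. Itga2 was listed at 0. Itga5, Itga9, Itgb4, Pxn, Parva, Tns1, Tns3 and Cdh2 had means of 0.118 to 1.01 FPKM in the switched libraries and 0.173 to 0.899 FPKM in their controls. Cav1, encoding caveolin and known as a Src substrate, was listed at 0 in the 3 controls and at 0.266, 0.331 and 0.404 FPKM in the switched libraries of the same lines (2i-14, then 2i-O48, then 2i-O48-TKO). The fibroblast genes rose slightly as a list, though not every gene of it did. Col1a1, Loxl1, Col5a1 and Col5a2 had lower means after the switch, with Col1a1 at 0.873 FPKM before and 0.475 FPKM after, whereas most of the list was higher. The mean log2(FPKM + 1) of the 16 fibroblast genes was 0.212, 0.163 and 0.213 in these controls and 0.257, 0.213 and 0.287 after the switch, their sum was 2.07 to 3.03 FPKM before and 3.08 to 3.93 FPKM after, and 5 to 8 of the 16 were at 0 before and 1 to 3 after. Postn, a matrix protein of fibroblasts, was 0 in the controls and 0.113, 0.306 and 0.150 FPKM after the switch, and its part in the Cav1 values, as that of the whole list, was not tested. On the longest Cav1 transcript, 3 fragments correspond to 0.0545 to 0.0855 FPKM. Parva was 1.04, 0.686 and 0.725 FPKM in the same controls and 0.0989, 0.675 and 0.0771 FPKM after the switch. Its level was lower in 2i-14 and 2i-O48-TKO and about the same in 2i-O48.

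Lists of related genes were read in the same fit. Of 8 matrix ligands and 3 other integrins tested, 0 were called. Of 22 other focal adhesion genes, 1 was called, Tes, a zyxin-related LIM protein, which fell from a mean of 30.0 to 11.4 FPKM (log2 change -1.31, adjusted p = 0.0181 by limma). Of 27 other cell junction genes, 1 fell and 1 rose. F11r, a tight junction adhesion molecule, fell from 27.3 to 13.03 FPKM (log2 change -1.01, adjusted p = 0.0379), and Crb3, a polarity protein, rose from 5.31 to 23.0 FPKM (log2 change 2.10, adjusted p = 0.0380). Of 15 targets of SRF and YAP, transcription programmes that respond to actin and adhesion, 4 fell and 0 rose, with a median change of -0.66. These were Cyr61 (17.7 to 3.39 FPKM, adjusted p = 0.0181), Cnn2 (20.8 to 6.04 FPKM, adjusted p = 0.0246), Fhl2 (1.90 to 0.0835 FPKM, adjusted p = 0.0237) and Myl9 (3.03 to 0.628 FPKM, adjusted p = 0.0203), all by limma. Fhl2 reached 1 FPKM in the 3 controls only, so it entered the test only through the group where it was higher. Nanog was the only pluripotency gene called among 12, at a mean of 316 FPKM before and 162 after (adjusted p = 0.0483). Of 6 trophoblast and epithelial genes, 2 were tested, the keratins Krt8 and Krt18, and 0 were called, with a median change of -1.20. Krt18, named after its values were seen, was 11.2, 68.7 and 10.97 FPKM in the 3 controls (2i-14 p50, then 2i-O48, then 2i-O48-TKO) and 10.86, 3.75 and 5.32 FPKM after the switch (log2 change -1.61, adjusted p = 0.194 by limma). Its widest difference was in the pair of 2i-O48, in which Ilk and Cttn also had their largest falls, and its part in those was not tested. The share of all genes called was 6.89% here as above.

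**Figure D3:**
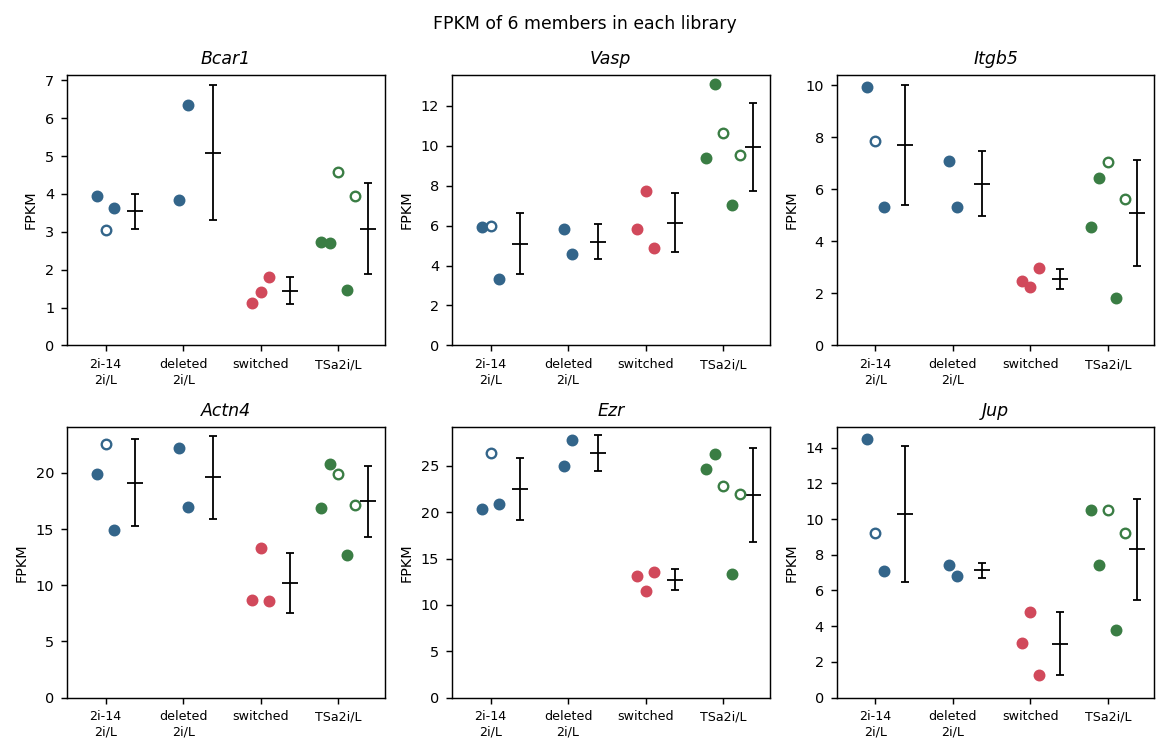
FPKM of Bcar1, Vasp, Itgb5, Actn4, Ezr and Jup in each library of 2i-14 in 2i/L (n = 3), the DMR-deleted lines in 2i/L (n = 2), switched cells (n = 3) and TSa2i/L (n = 5), with the mean and SD beside the points. Open points are the 3 libraries with fibroblast RNA, and the switched Bcar1 values, 1.12 to 1.82 FPKM, lie below all libraries in 2i/L.

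The second comparison set the 5 wild-type libraries in TSa2i/L against the 3 of 2i-14 in 2i/L, so that the medium and the derivation of the lines cannot be told apart. It shares 2i-14 p50 with the switch comparison. 1 of the 33 members tested was called, Vasp, which was higher, where 7.57% of the 10387 genes tested were called and 5.72% were called higher. The median log2 change of members was -0.07 against 0.07 for all genes, and 23 of 33 were negative. Centring lowered every change by 0.12, which put 28 of 33 members below 0, and 75.6% of the called genes were higher as deposited against 56.2% after centring and 55.7% after quantile normalization.

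Vasp (chromosome 7 of NCBIM37, 19842278 to 19857166, minus strand, protein coding) promotes actin assembly at focal adhesions and cell edges. The 3 cultures of 2i-14 had 5.96 (p18), 5.99 (p39) and 3.33 (p50) FPKM, against 9.40, 13.1 and 10.6 FPKM in TSa2i-14 p22, p47 and p54 and 7.02 and 9.56 FPKM in TSa2i-C57 p9 and p58. Every library in TSa2i/L was above every library of 2i-14 in 2i/L. The log2 change was 0.86 (SE 0.23, 95% interval 0.35 to 1.37, adjusted p = 0.0479 by limma). The value lay at the threshold. After centring it was 0.74 (adjusted p = 0.0576), with the mean of the fibroblast genes as covariate 0.83 (adjusted p = 0.0594), and without the 3 libraries with fibroblast RNA 0.94 (adjusted p = 0.218). The call was lost on leaving out 2i-14 p18, p39 or p50, TSa2i-14 p22, p47 or p54, or TSa2i-C57 p58, with adjusted p-values of 0.0651 to 0.168 and changes of 0.63 to 0.97.

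The members with the largest changes after the switch were not called in TSa2i/L, in values from a fit that shares a control. Bcar1 was 2.74, 2.71 and 4.58 FPKM in TSa2i-14 p22, p47 and p54 and 1.46 and 3.96 FPKM in TSa2i-C57 p9 and p58, against 3.05 to 3.96 FPKM in 2i-14. The groups overlapped, with a log2 change of -0.20 (95% interval -0.76 to 0.35, adjusted p = 0.697 by limma). Actn4 and Ezr had log2 changes of -0.12 and -0.07, and Jup of -0.29. Itgb5 had a log2 change of -0.57 (95% interval -1.29 to 0.15). Its 5 values in TSa2i/L were 4.54, 6.43, 7.04, 1.82 and 5.63 FPKM in the order above, overlapping the 5.34 to 9.93 FPKM of 2i-14. Itgb1 and Lims1 were lower in every TSa2i/L library than in every library of 2i-14, with log2 changes of -0.38 (adjusted p = 0.221) and -0.40 (adjusted p = 0.233 by limma). These were 2 of 33 members, where 4.72% of all genes were lower in every library, and Vasp was the 1 member higher in every library, where 11.8% were. Of the related lists, 4 of 26 other cell junction genes rose and 0 fell, where 5.72% of all genes tested were called higher. These were Cldn4, Cldn7, Pkp3 and Crb3, named here after their values were seen apart from Crb3, with log2 changes of 1.57, 1.47, 1.12 and 1.75. The groups did not overlap for Cldn4 and Pkp3, and they overlapped for Cldn7 and Crb3. Cldn7 was 20.5 FPKM in 2i-14 p50 and 18.7 in TSa2i-C57 p58, and Crb3 was 9.01 in 2i-14 p50 and 8.22 in TSa2i-14 p54. Crb3 was thus called higher in both comparisons. Of 17 targets of SRF and YAP, Tagln2 rose and Cnn2 fell (log2 changes 1.35 and -0.95), and of 25 other focal adhesion genes Fyn, a kinase of the Src family, rose (log2 change 0.93), Tagln2 and Fyn also being named after their values were seen. None of the genes in the remaining lists was called. Cyr61 had a log2 change of 0.09 here, at 12.1 to 31.9 FPKM in TSa2i/L and 19.2 to 24.6 FPKM in 2i-14.

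Some members were high where the fibroblast genes were high. The 16 fibroblast genes summed to 45.3 to 146 FPKM in the 3 libraries with fibroblast RNA and to 2.07 to 11.4 FPKM in the other 10. Of the 34 members at 1 FPKM or more in at least 3 of the 13 libraries, Cav1, Parva and Tln1 were higher in each of the 3 libraries with fibroblast RNA than in each of the other 10, where 1.37% of 10731 genes were. Cav1 reached 1 FPKM in these 3 libraries only, so the filter had fixed its outcome in this count. Cav1 was 19.7, 17.0 and 6.57 FPKM in 2i-14 p39, TSa2i-14 p54 and TSa2i-C57 p58, 0.739 FPKM in TSa2i-14 p22, and at most 0.404 FPKM elsewhere. Outside the 3 libraries its level was thus under 1 FPKM in every medium. Parva was 3.91, 2.72 and 2.43 FPKM in the 3 libraries and at most 1.79 FPKM elsewhere, and Tln1 was 2.13, 2.42 and 1.95 FPKM and at most 1.80 FPKM elsewhere. Zyx was 4.00, 4.11 and 1.71 FPKM in them, with 1.80 FPKM in TSa2i-14 p47. Cav1, Parva and Zyx had log2 changes of 0.11, -0.14 and 0.05 between TSa2i/L and 2i/L, with a 95% interval of -2.38 to 2.59 for Cav1, and each group held libraries with and without fibroblast RNA. Fibroblasts express many of these genes, and how much of each member's RNA came from them was not tested. In bulk RNA, fewer cells of a type and less RNA per cell cannot be told apart. Dcn, a defining fibroblast gene, was 3.76, 58.2 and 19.6 FPKM in the 3 libraries, 3.55 FPKM in p22 of TSa2i-14, and below 1 FPKM in all other 9.

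**Figure D4:**
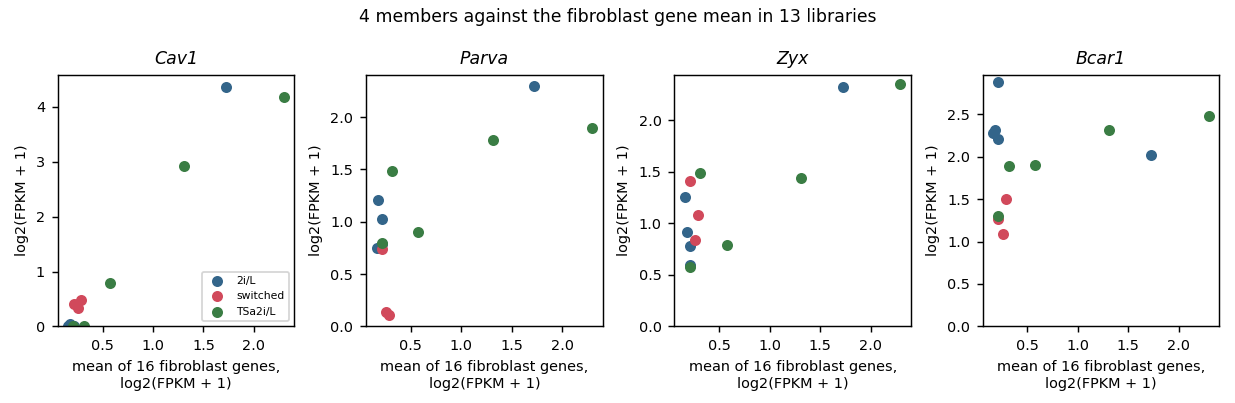
Level of Cav1, Parva, Zyx and Bcar1 as log2(FPKM + 1) against the mean log2(FPKM + 1) of 16 fibroblast genes, one point per library (13), coloured by medium. Cav1 is above 1 FPKM only where the fibroblast mean is at least 1.31, while the switched Bcar1 values are the lowest at fibroblast means of 0.213 to 0.287 but for TSa2i-C57 p9.

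The switched cells and the long-term TSa2i/L cultures were also compared directly, a comparison added after the values were seen, in which the lines differ as well as the time in the medium. It shares its libraries with both comparisons above. The implied depth was 16900000 to 19500000 fragments in the switched libraries and 12800000 to 16300000 in TSa2i/L, and the part of depth in the result was not tested. 6 of 32 members tested were lower in switched cells and 0 were higher, where 14.6% of the 10285 genes tested were called and 12.2% were called lower. The members were Ilk, Parva, Actn4, Ezr, Msn and Jup, and after median centring, which raised every change by 0.26, or quantile normalization, none of these was called. Parva reached 1 FPKM only in TSa2i-14 p47, TSa2i-14 p54 and TSa2i-C57 p58, at 1.79, 2.72 and 2.43 FPKM. It thus entered the test only through the group where it was higher, so its lower value in switched cells is no separate support. As deposited 16.6% of all called genes were higher, against 60.3% after centring and 44.1% after quantile normalization. The median log2 change was -0.34 for members and -0.17 for all genes, and 28 of 32 members were negative as deposited, 20 after centring and 21 after quantile normalization. At an unadjusted p under 0.05, 13 members were lower, where 24.9% of all genes were. The largest change was that of Jup, -1.24 (SE 0.34, adjusted p = 0.0351 by limma). Msn was at most 14.2 FPKM in switched cells and 15.9 to 25.2 FPKM in TSa2i/L, with no overlap and a log2 change of -0.72 (adjusted p = 0.0295). Ilk was 14.6 to 21.3 FPKM in switched cells and 22.5 to 34.6 FPKM in TSa2i/L, also with no overlap (log2 change -0.76, adjusted p = 0.0272). Groups that did not overlap, all lower, were found for 3 of 32 members (Parva, with the limit above, was the third) and for 17.2% of all genes. Bcar1 and Vasp had log2 changes of -0.69 and -0.61 (adjusted p = 0.0863 and 0.0773 by limma), so that neither was shown to differ between switched and TSa2i/L cells. Without TSa2i-14 p54 and TSa2i-C57 p58, which carried fibroblast RNA, 0 members were called, and leaving out any one of the 8 libraries gave 0 to 11. It was 0 without TSa2i-14 p54, TSa2i-C57 p58 or switched 2i-O48-TKO, 1 without TSa2i-14 p47, 2 without switched 2i-14, 3 without TSa2i-14 p22 or switched 2i-O48, and 11 without TSa2i-C57 p9. Calls over all genes were also most numerous without TSa2i-C57 p9, and fewest without both TSa2i/L libraries with fibroblast RNA. These counts alone are therefore no result about the members.

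**Figure D5:**
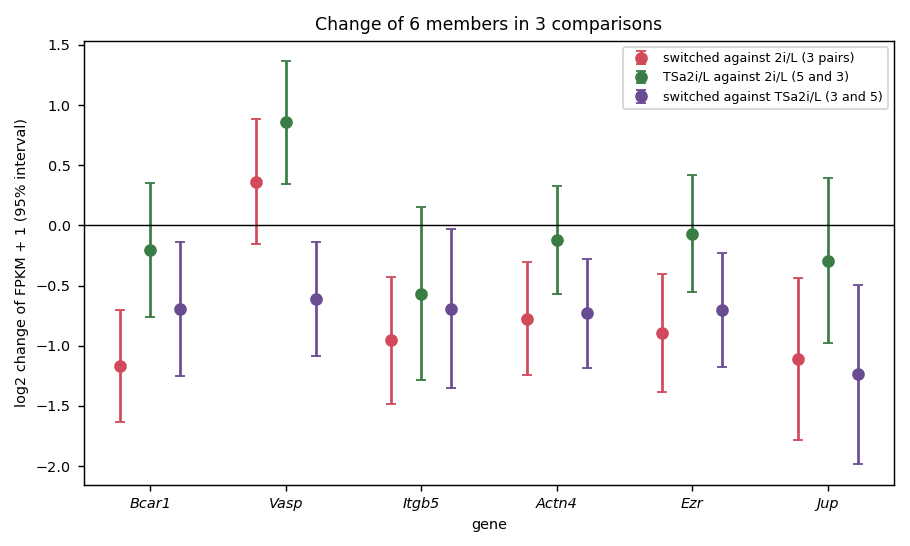
Log2 change of FPKM + 1 with its 95% interval for 6 members in the comparisons of switched cells with 2i/L (3 pairs), of TSa2i/L with 2i/L (5 and 3 libraries) and of switched cells with TSa2i/L (3 and 5 libraries), which share libraries. Bcar1 lies at -1.17, -0.20 and -0.69 and Vasp at 0.36, 0.86 and -0.61 in these comparisons.

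No member was called between lines within a medium, in fits of 2 against 3 libraries that called few genes or none. In 2i/L, 2i-O48 and 2i-O48-TKO were set against the 3 libraries of 2i-14, and 0 of 33 members were called by limma, where 0.118% of the 10164 genes tested were. 1 member, Cdh2, had an unadjusted p under 0.05. It was 0.359 and 0.231 FPKM in the DMR-deleted lines and 1.53, 1.26 and 0.532 FPKM in 2i-14 (log2 change -0.67, adjusted p = 0.8004 by limma). The median change of members was 0.04, with 18 of 33 positive, and -0.02 after centring, with 12 positive. In TSa2i/L, TSa2i-C57 was set against TSa2i-14, and 0 of 33 members were called by limma, where 0% of the 10502 genes tested were and 366 genes had an unadjusted p under 0.05. Cdh2 was the member under that value, at 0.425 and 0.396 FPKM in TSa2i-C57 and 1.52, 0.918 and 1.41 FPKM in TSa2i-14 (log2 change -0.68, adjusted p = 0.999 by limma). It reached 1 FPKM only in TSa2i-14 p22 and p54 here, and only in 2i-14 p18 and p39 in the comparison in 2i/L. Cdh2 thus passed each filter only through the line where it was higher, and its 2 low p-values do not show a recurring difference. In this comparison 28 of 33 members were negative as deposited and 25 after centring, where 53.9% and 44.7% of all genes were, and the median change was -0.20 for members and -0.02 for all genes. With 0 genes called, the fit does not show that the lines are alike. TSa2i-C57 p9, the shallowest library, was the lowest of the 5 TSa2i/L libraries in 22 of 33 members, where it was the lowest in 37% of all genes tested.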

How the data were processed

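RNA-seq of 13 cultures was analysed, and the methylation and ChIP-seq samples were not analysed here. The authors amplified cDNA of counted haploid cells, mapped reads to mm9 and deposited 1 FPKM value per gene row and library (the submitters' processing notes name TopHat2 2.0.11, Bowtie2 2.2.2 and Cufflinks 2.2.1). The annotation and any scaling between libraries are not given in the sources used here. No strand information is stated, so reads of overlapping antisense genes cannot be told apart.

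Where a symbol had several rows these were added up (268 of 24028 symbols, no member). Values were tested as log2(FPKM + 1), which understates changes of low genes, with limma 3.58.1 (trend) in R 4.3.3, at a Benjamini-Hochberg adjusted p of 0.05 over all genes reaching 1 FPKM in 3 or more libraries (2 for the comparisons of lines). No count model was run, since the files hold no counts. The switch pairs come from the cell line in the labels. The 2 libraries of a line deviated from their group means with correlations of 0.17 (2i-14), -0.14 (2i-O48) and 0.36 (2i-O48-TKO). The labels do not say which passage of 2i-14 was switched, and p50 was used as its control. Depth was implied from the FPKM of lone fragments on 3737 genes with 1 transcript longer than 1500 bp in GENCODE vM1 (NCBIM37), which carries the members' positions. The fits and the depth estimate were tested on simulated data.

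The members and gene lists were chosen with earlier results of these data known. Values per library are given for members with an adjusted p under 0.05 in the switch or TSa2i/L comparison or with the largest absolute change of their role in the switch. Genes of other lists are named where called in the switch, up to 4 per list, and exceptions are stated. The comparison of switched with TSa2i/L cells, and 2i-14 p18 or p39 as the control, were added after the values were seen. The alternatives tried were a pseudocount of 0.1, no filter or one on a mean of 5 FPKM, median centring, quantile normalization, no trend, the highest row of a repeated symbol, no block, other controls, a fibroblast covariate and leaving out each library or line. Sequences and motif shares used Python 3.11.15 with pandas 2.3.3 and numpy 2.4.6, and plots matplotlib 3.10.9.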

Additional observations from a re-analysis of the deposited data

Results flagged for a closer look

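Within the 5 TSa2i/L libraries, 5 of 33 members had 1 library far from the others, where chance flags about 1 in 20 such groups, or about 1.65 here. Divided by the whole range on the log2(FPKM + 1) scale, the distance to the next library was 0.842 for Rdx (16.2 FPKM), 0.757 for Ctnna1 (31.6 FPKM), 0.742 for Cttn (13.3 FPKM) and 0.734 for Ezr (13.3 FPKM), each lowest in TSa2i-C57 p9. These 4 flags come from the same library and are not independent. The same quantity was 0.767 for Myh9, lowest in TSa2i-14 p22 at 1.16 FPKM. TSa2i-C57 p9 was the earliest passage among these libraries, so passage, line and library cannot be told apart, and the part of each was not tested.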

How the results depend on the processing

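The count of members called after the switch was 1, and it was 0 without a filter or with a mean FPKM of at least 5, 2 without the trend, 3 with no replicate block, 5 with all 3 libraries of 2i-14 as controls, 7 and 6 with 2i-14 p18 or p39 as the control, and 0 to 6 on leaving out each line. All of these members were lower. Bcar1 was among them in each of these fits with a call. It was lost without a filter and without 2i-O48-TKO, and with a mean FPKM of at least 5 it was not tested. Its change was -1.58 to -1.01 over 13 alternatives (adjusted p 0.00595 to 0.153). The count in TSa2i/L against 2i/L was 1, Vasp, and 0 without a filter, with a mean FPKM of at least 5, after median centring or quantile normalization, without the 3 libraries with fibroblast RNA, with the fibroblast covariate or with TSa2i-14 only, and 0 to 1 on leaving out each library. The count in switched against TSa2i/L cells was 6, and 0 without a filter, after either scaling or without the 2 TSa2i/L libraries with fibroblast RNA, and 0 to 11 on leaving out each library. The cause was not tested, other than that stricter filters and fewer libraries change what is tested. The counts of 0 between lines were 0 in every alternative. Actn4 and Ezr, which were not called in TSa2i/L, changed sign there with TSa2i-14 only (0.020 and 0.13) and on leaving out 2i-14 p39, and Ezr also without TSa2i-C57 p9. Leaving out each library gave -0.28 to 0.0017 for Actn4 and -0.14 to 0.092 for Ezr. Of 195 alternative values of 6 members, 5 changed sign, 16 lost and 20 gained a call, and 154 kept both. Over all genes, the calls numbered 672 after the switch (0 without a filter to 1522 with 2i-14 p39 as the control), 786 in TSa2i/L (229 without the 3 libraries with fibroblast RNA to 1316 with the DMR-deleted lines added to 2i/L) and 1504 in switched against TSa2i/L cells (455 without the 2 TSa2i/L libraries with fibroblast RNA to 2188 without TSa2i-C57 p9). Members moving the same way in both DMR-deleted pairs numbered 20, and 16 to 20 under the alternatives. Depth limits the members under 1 FPKM most.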
